A study of Mus musculus with 22 samples.

Results

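The genes described here are Myc and 38 genes that act in ribosome biogenesis, 39 of the 18193 genes measured in terminal ileum. NOD mice, an inbred line prone to autoimmune diabetes, were the source of the tissue. The genes were chosen by symbol with earlier results of these data known. Each gene was read from its brightest probe set, judged by the mean over the 22 arrays. All 39 were matched, through 82 probe sets, and 28 had more than 1. All arrays carried total RNA from NOD mice, the controls included, and each array was labelled with a treatment and a sex. There were 3 control females, 5 control males, 3 PAT females, 5 PAT males, 3 STAT females and 3 STAT males, 22 arrays in all. PAT is a course of antibiotics at therapeutic doses given in pulses and STAT is exposure to antibiotics below the therapeutic level. The sources used here give no drug, dose or age. The labels do not state that each sample is a different animal, so p-values measure only the spread between samples, and part of that may be technical.

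Ribosomes are built in the nucleolus, where RNA polymerase I transcribes a long precursor RNA. Small nucleolar RNA particles modify that precursor, and large sets of assembly factors cut and fold it into the small and the large ribosomal subunit. MYC is a transcription factor that binds DNA with its partner MAX at a short sequence called the E-box and is known for raising the expression of many of these genes in growing cells. In the small intestine, dividing cells sit in the crypts and differentiated absorptive cells cover the villi.

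Values are log2 expression levels made with RMA, a method that removes background, brings arrays to a common distribution and combines the probes of each set into 1 value. A difference of 1 is a 2-fold change. The number of arrays limits the precision. The ileal label was borne out by the bile acid binding protein gene Fabp6, at a mean log2 level of 14.29, and the bile acid transporter gene Slc10a2, at 11.14. Column medians lay between 5.68 and 5.79. All 39 members had a mean log2 level of at least 6, so none was lost to a filter on low values. Mean log2 levels ran from 6.22 for Rrp12 to 12.70 for Npm1. The median standard deviation within groups was 0.171 for the members and 0.158 for all genes. The samples are whole tissue, in which more cells of a type and more RNA per cell cannot be told apart.

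The E-box CACGTG reads the same on both strands and was sought in RefSeq promoters of build GRCm38.p6, from 250 bases before to 50 after the start. Of 33 members with a promoter in the table, 7 held it (21.2%), against 8.09% of 27025 genes in the table and 11.7% of 9241 measured genes with a mean level of at least 6. The 7 were Utp14b, Nop2, Utp18, Utp20, Pes1, Mybbp1a and Wdr43. Of these 7, 5 rose in PAT mice by the limma test described next, with a median log2 difference of 0.37. Of the 26 without it, 21 rose, with a median of 0.38, and of all genes 4.61% rose by that test. A match of these letters is a description and not a binding site. The motif lay upstream of the start in Utp14b, Nop2 and Utp18, and for those 3 the 120 bases before the start are shown 5′ to 3′ on the gene's strand, with the motif in capitals, because Utp14b and Nop2 are among the genes whose values are given by array below. The stretches are chr1:78658320-78658439 (plus strand) for Utp14b, chr6:125131763-125131882 (plus strand) for Nop2 and chr11:93885767-93885886 (minus strand) for Utp18.
Utp14b: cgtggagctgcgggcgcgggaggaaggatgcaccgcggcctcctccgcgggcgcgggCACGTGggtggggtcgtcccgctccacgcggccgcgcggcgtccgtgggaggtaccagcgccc
Nop2: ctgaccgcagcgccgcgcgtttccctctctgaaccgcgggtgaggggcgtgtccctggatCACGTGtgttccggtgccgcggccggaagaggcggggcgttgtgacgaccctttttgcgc
Utp18: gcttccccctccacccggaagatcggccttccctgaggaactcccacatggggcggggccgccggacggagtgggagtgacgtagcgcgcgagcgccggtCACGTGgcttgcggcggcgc

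Most of the 39 genes rose in PAT mice. Because they were chosen with earlier results of these data known, the counts are descriptions. Averaged over the sexes, limma called 27 of 39 members higher than in controls and 0 lower at an adjusted p under 0.05, against 11% of all genes called in either direction, 4.61% higher and 6.38% lower. Of the 28 members with several probe sets, 26 had all of them on the same side of 0. Among these 28, 19 were called, and for 11 of them another probe set was called in the same direction. The log2 difference was above 0 in 38 of 39 members. The median was 0.37, with a range from -0.05 for Utp6 to 1.88 for Utp14b, and the median of all genes was -0.005. In STAT mice 38 of 39 differences were also above 0, against 48.5% of all genes. The median there was 0.15, against -0.004 for all genes, and 0 members were called, as was 0% of all genes. PAT and STAT were compared with the same control arrays, so these directions are not independent of each other.

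**Figure D1:**
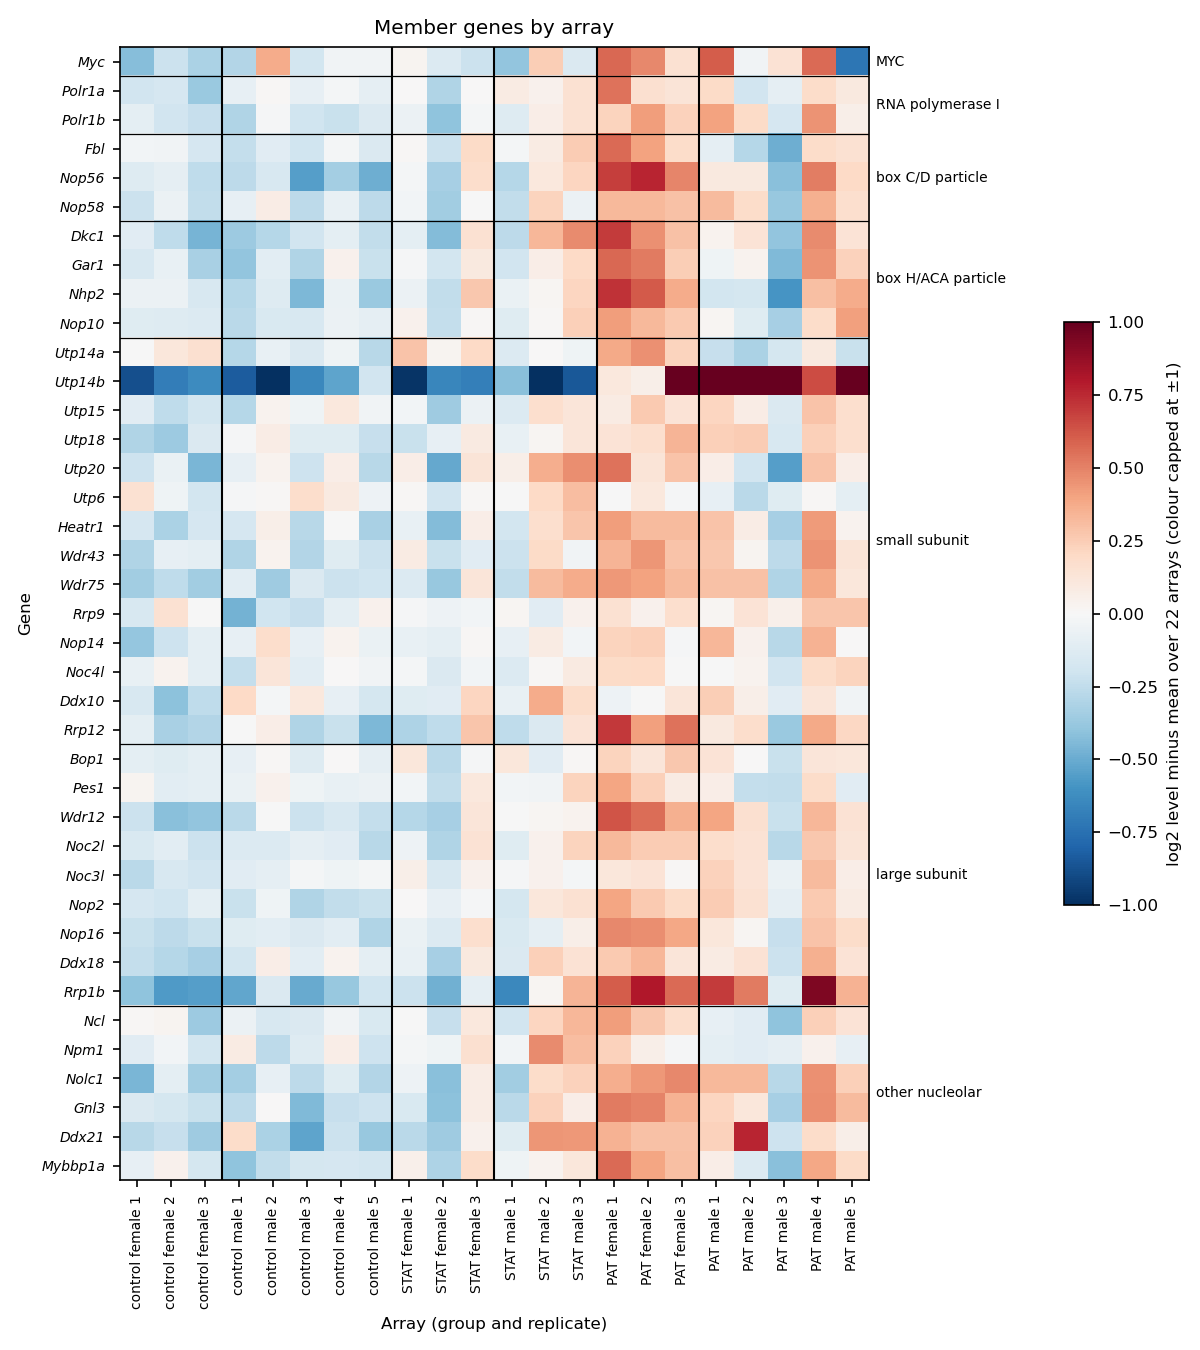
Log2 level of each of the 39 genes (rows, grouped by role) on each of the 22 arrays (columns, grouped by treatment and sex), as the difference from the gene's mean over all arrays; red is higher and colours are capped at ±1. The PAT female columns are red in nearly every row, PAT male 3 is mostly blue, and Utp14b has the widest range, from 6.32 to 10.05.

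The array means show how the samples fell. The mean deviation of the 39 members from their own means over the 22 arrays was 0.38, 0.33 and 0.29 in PAT females 1 to 3, and -0.19, -0.17 and -0.24 in control females 1 to 3. In PAT males 1 to 5 it was 0.21, 0.12, -0.21, 0.32 and 0.14, and in control males 1 to 5 it was -0.20, -0.08, -0.21, -0.10 and -0.19. All PAT females lay above all controls, and so did every PAT male except PAT male 3, which lay within the control range. In STAT females it was -0.07, -0.27 and 0.05, and in STAT males -0.15, 0.09 and 0.14. STAT males 2 and 3 and STAT female 3 lay above all controls, STAT female 1 did so only just, and the other two STAT arrays did not. PAT male 3 had 3 members above their own mean, against 26 to 39 in the other PAT males.

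**Figure D2:**
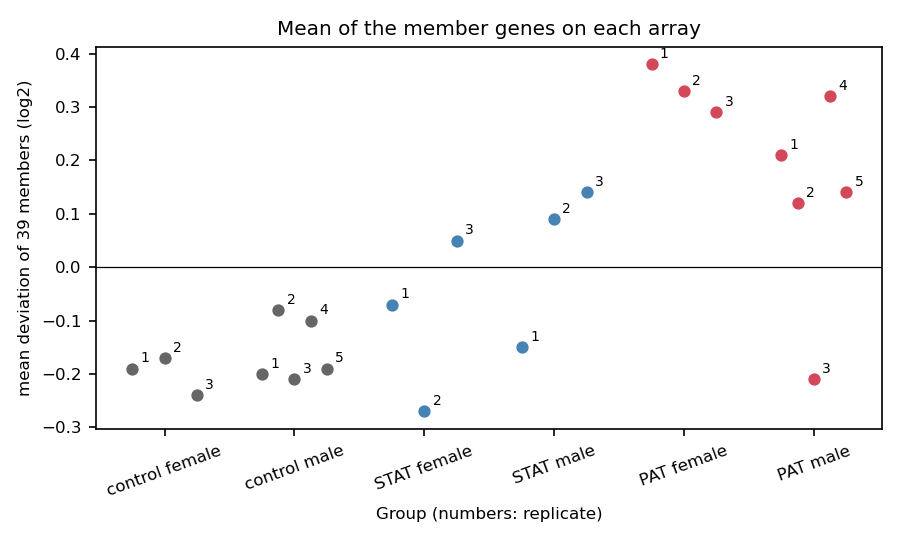
Mean deviation of the 39 members (log2, vertical axis) on each array, by group, with replicate numbers beside the points. PAT females lie between 0.29 and 0.38, controls between -0.24 and -0.08, and PAT male 3 at -0.21 lies among the controls.

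RNA integrity and cell type markers moved with some of these groups. The Gapdh end difference, which is the log2 signal of the 3-prime control probe set minus that of the 5-prime one, was -0.07 ± 0.04 (SD, n = 3) in PAT females and -0.15 ± 0.06 (n = 3) in control females, and -0.16 ± 0.06 (n = 5) in PAT males and -0.24 ± 0.03 (n = 5) in control males. With that difference as a covariate limma called 9 members in PAT mice, all among the 27, with a median of 0.30, against 4.16% of all genes called. The 9 were Rrp1b, Wdr12, Utp14b, Nop16, Nop2, Nop56, Nolc1, Polr1b and Utp18. The crypt and dividing cell list, of which 7 genes were measured, had mean deviations of 0.15 to 0.52 in PAT females against -0.18 to 0.11 in control females, and of -0.57 to -0.04 in PAT males against -0.13 to 0.07 in control males. The list thus lay above controls in PAT females and not in PAT males, and its lowest value, -0.57, was in PAT male 3. Of its genes Mcm3, a replication helicase subunit, rose by 0.58 ± 0.14 (adjusted p = 0.012) and Ascl2, a stem cell transcription factor, fell by 0.58 ± 0.13 (adjusted p = 0.0061). The B cell list, of which 5 genes were measured, stood at 1.82 in PAT female 1 and between -0.24 and 0.11 on the other arrays. The endothelium list, of which 4 genes were measured, was at 0.05 to 0.76 in PAT females against -0.44 to -0.11 in control females, and at -0.23 to 0.36 in PAT males against -0.34 to 0.11 in control males. In PAT mice 2 of its 4 genes rose, averaged over the sexes, with a list median of 0.38: Kdr, a growth factor receptor of vessels, by 0.42 ± 0.11 (adjusted p = 0.015) and Plvap, a protein of vessel wall openings, by 0.49 ± 0.14 (adjusted p = 0.03). The ileal enterocyte list, with 8 genes measured, was at 0.07 to 0.35 in PAT females against 0.02 to 0.05 in control females. The median difference of its genes in females was -0.09, with 1 gene called higher and 0 lower, against 2.27% and 1.08% of all genes. In PAT males the list was at -0.08 to 0.43, highest in PAT male 3, against -0.13 to 0.07 in control males. There the median was 0.15, with 2 genes called higher and 0 lower. Averaged, 2 of its genes rose, with a list median of 0.03. In that averaged comparison 4.61% of all genes rose. In PAT males 2 of 5 Paneth cell genes fell, and of 4 plasma cell genes 1 rose and 2 fell. Of all genes 2.34% rose and 6.68% fell there. RMA values have no 0, so no marker was absent by that measure. The part of these differences in the results was not tested beyond the covariate.

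Myc itself varied widely within groups. Its log2 level was 9.86, 9.77 and 9.44 in PAT females and 8.86, 9.07 and 8.97 in control females. In PAT males it was 9.89, 9.25, 9.43, 9.85 and 8.56, and in control males 8.99, 9.66, 9.10, 9.25 and 9.25. The female groups did not overlap, whereas PAT male 5 was the lowest and PAT male 1 the highest of all 22 arrays. The PAT difference was 0.44 ± 0.16 (SE) averaged over the sexes (adjusted p = 0.078), 0.72 ± 0.25 in females (adjusted p = 0.097) and 0.15 ± 0.19 in males (adjusted p = 0.67), none of which passed. Without PAT male 5 the averaged difference was 0.54 and passed (adjusted p = 0.0067). It also passed with array weights (0.44, adjusted p = 0.03) and with quantile normalization repeated (0.47, adjusted p = 0.049). The female difference passed with array weights and with only the groups compared, where 8.38% and 2.92% of all genes were called. It did not pass with the Gapdh covariate, median centring or quantile normalization repeated. In STAT females Myc was at 9.31, 9.15 and 9.07 and in STAT males at 8.89, 9.53 and 9.14, and the averaged difference from controls was 0.07 ± 0.17 (adjusted p = 0.89).

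Of 12 measured partners and relatives of MYC, 0 rose and 2 fell in PAT mice, with a list median of -0.14. Of all genes 4.61% rose and 6.38% fell in that comparison. Mxd4, which competes with MYC for MAX, fell by 0.59 ± 0.11 (adjusted p = 0.0012), and Mycl, a MYC paralog, fell by 0.44 ± 0.08 (adjusted p = 0.0017). Of 14 measured growth and metabolism genes known to respond to MYC, 10 rose and 0 fell, with a median of 0.40. The transferrin receptor gene Tfrc rose by 0.71 ± 0.08 (adjusted p = 1.3e-05) and the ornithine decarboxylase gene Odc1 by 0.63 ± 0.09 (adjusted p = 8.8e-05). Ppat, the first enzyme of purine synthesis, rose by 0.59 ± 0.10 and the translation initiation factor gene Eif4e by 0.43 ± 0.09. By sex, 6 of the 14 rose in females and 3 in males, against 2.27% and 2.34% of all genes.

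Both RNA polymerase I members rose in PAT mice. Polr1a and Polr1b, which encode the largest subunits of the enzyme, rose by 0.31 ± 0.07 (adjusted p = 0.011) and 0.41 ± 0.09 (adjusted p = 0.0037). Polr1a was not called with the mean of its probe sets or with the Gapdh covariate. Of 13 other polymerase I subunits and initiation factors measured, 3 rose and 0 fell, against 4.61% and 6.38% of all genes. The list median was 0.04. In PAT males alone the list had 1 gene higher and 2 lower, with a median of -0.03. Of all genes 2.34% were higher and 6.68% lower in PAT males. Chosen after the values were seen, the genes called in PAT males are Cd3eap (0.41 ± 0.12), Polr1c (-0.36 ± 0.08) and Taf1c (-0.27 ± 0.09). Those that rose on average were the subunit gene Polr1e (0.53 ± 0.10), Cd3eap, which encodes a further subunit (0.35 ± 0.10), and the initiation factor gene Rrn3 (0.23 ± 0.07).

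Genes for core proteins of both kinds of small nucleolar particle rose, with 1 exception. In the box C/D particle, which methylates ribosomal RNA, Nop56 and Nop58 rose and the methyltransferase gene Fbl did not pass, at 0.25 ± 0.09 (adjusted p = 0.092). Nop56 was at 10.38, 10.45 and 10.18 in PAT females and at 9.56, 9.60 and 9.44 in control females. In PAT males it was at 9.79, 9.79, 9.27, 10.20 and 9.89, and in control males at 9.43, 9.53, 9.14, 9.35 and 9.20. The female groups did not overlap, and in males only PAT male 3 fell within the control range. Nop56 rose by 0.63 ± 0.11 averaged (adjusted p = 0.0011), by 0.81 ± 0.18 in females (adjusted p = 0.018) and by 0.46 ± 0.14 in males (adjusted p = 0.038). Its call in females was kept in 2 of the 6 fits that left out 1 array, and in males in 2 of 10. In the box H/ACA particle, which converts uridine to pseudouridine, all 4 members rose, against 4.61% of all genes. Dkc1, the pseudouridine synthase, rose by 0.53 ± 0.12, Gar1 by 0.44 ± 0.11, Nhp2 by 0.43 ± 0.12 and Nop10 by 0.32 ± 0.09, with adjusted p from 0.0074 to 0.02.

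**Figure D3:**
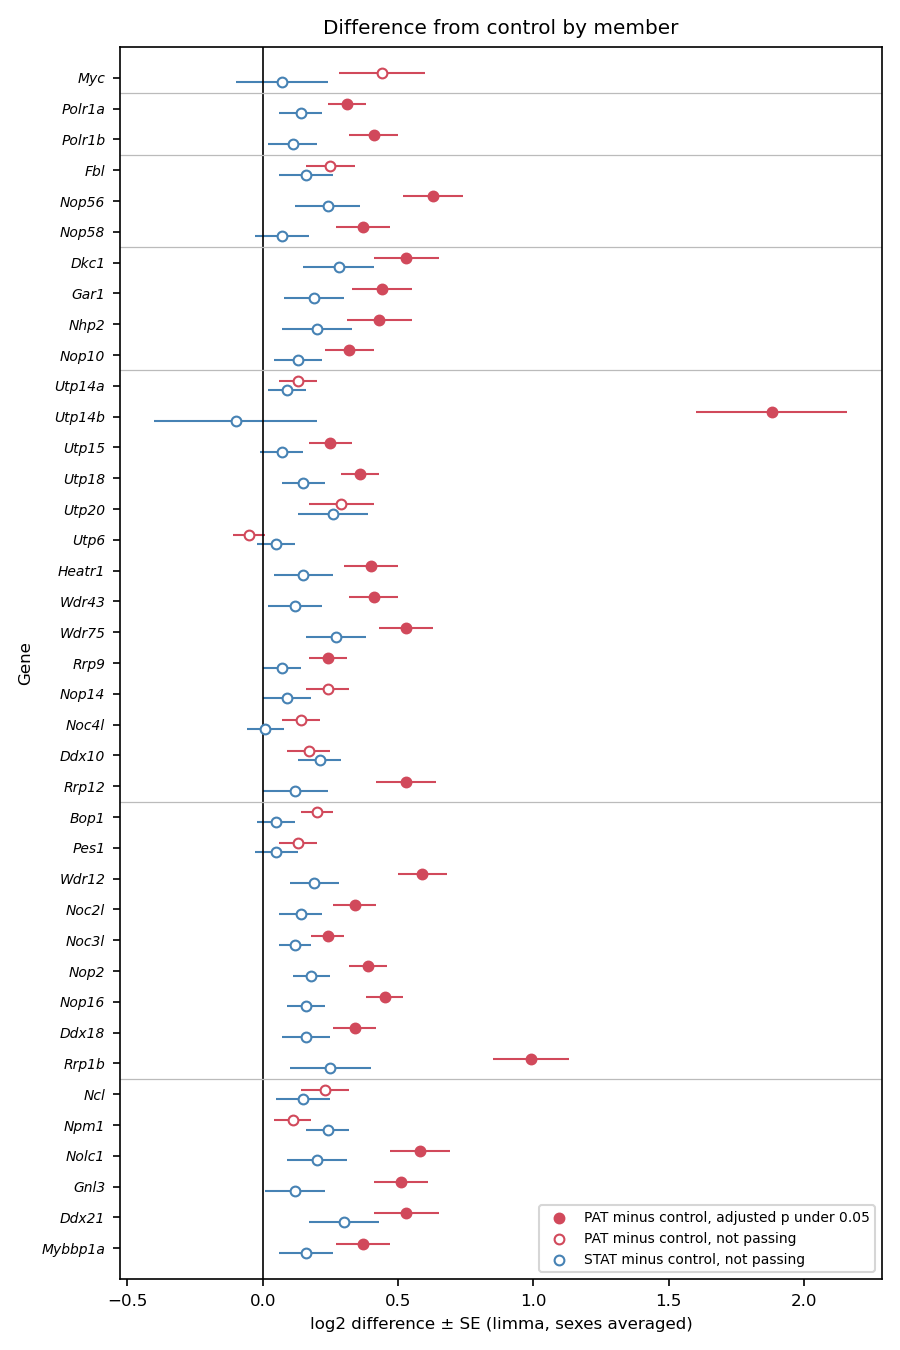
Log2 difference from control (horizontal axis, limma estimate ± SE, sexes averaged) for each gene, for PAT (red) and STAT (blue); filled points passed an adjusted p of 0.05 and lines divide the roles in the order of the heat map. Of the PAT points 27 are filled and all are above 0, and none of the STAT points is filled.

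Among the 14 small subunit factors, 8 rose in PAT mice and 0 fell, against 4.61% and 6.38% of all genes. Their median was 0.27. Wdr75 rose by 0.53 ± 0.10, Wdr43 by 0.41 ± 0.09, Heatr1 by 0.40 ± 0.10 and Utp15 by 0.25 ± 0.08; these 4 encode proteins that load first on the precursor RNA. Utp18, of a further assembly module, rose by 0.36 ± 0.07 and Rrp12, which acts late in the export of the subunit, by 0.53 ± 0.11. Those that did not pass were Nop14 (0.24 ± 0.08), Noc4l (0.14 ± 0.07), the helicase gene Ddx10 (0.17 ± 0.08), Utp20 (0.29 ± 0.12), Utp14a (0.13 ± 0.07) and Utp6 (-0.05 ± 0.06). For Utp6 the probe sets disagreed, since another of its 3 probe sets was higher by 0.30 ± 0.06 (adjusted p = 0.0042), and the mean of its probe sets was higher by 0.17 ± 0.06 (adjusted p = 0.048). The call for Utp15 was kept in 7 of 16 fits that left out 1 array.

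Rrp9, which encodes a protein specific to the particle that guides the early cuts, differed from most members in that its larger difference lay in males. It was at 8.65, 8.77, 8.68, 8.91 and 8.91 in PAT males and at 8.16, 8.43, 8.40, 8.53 and 8.67 in control males. It was at 8.78, 8.67 and 8.80 in PAT females and at 8.47, 8.78 and 8.63 in control females. The groups overlapped in both sexes. The difference was 0.35 ± 0.09 in males (adjusted p = 0.014), 0.12 ± 0.11 in females (adjusted p = 0.57) and 0.24 ± 0.07 averaged (adjusted p = 0.033). The female and the male difference were not separated by the interaction test (-0.22 ± 0.14, adjusted p = 0.39), and the averaged call was kept in 8 of 16 fits that left out 1 array.

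Utp14b moved most of all members. It is an intronless copy of Utp14a that arose by retroposition and is known for its role in the male germ line. Its level in PAT females was 7.64, 7.59 and 9.71, and in control females 6.65, 6.84 and 6.90. In PAT males it was 9.75, 10.05, 8.68, 8.18 and 8.91, and in control males 6.70, 6.46, 6.89, 7.00 and 7.34. Every PAT array lay above every control array, PAT male 3 included, and PAT female 3 stood far above the other PAT females. The averaged difference was 1.88 ± 0.28, a 3.67-fold rise (adjusted p = 0.00025). It was 2.23 ± 0.35 in males (adjusted p = 0.00052) and 1.52 ± 0.45 in females (adjusted p = 0.06), and the sexes were not separated (interaction -0.71 ± 0.56, adjusted p = 0.5). STAT females were at 6.55, 6.88 and 6.85 and STAT males at 7.11, 6.32 and 6.68, within or just below the control range. The STAT difference was -0.10 ± 0.30 (adjusted p = 0.92).

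The parent gene Utp14a did not follow. It was at 8.96, 9.04 and 8.81 in PAT females and 8.58, 8.70 and 8.74 in control females. The PAT males were at 8.35, 8.27, 8.41, 8.68 and 8.36, and the control males at 8.30, 8.51, 8.44, 8.54 and 8.31. STAT females were at 8.87, 8.61 and 8.78 and STAT males at 8.45, 8.59 and 8.54. Against controls of the same sex, only the PAT females did not overlap. No difference from controls passed: 0.26 ± 0.10 in PAT females (adjusted p = 0.15), -0.01 ± 0.08 in PAT males (adjusted p = 0.97) and 0.09 ± 0.07 in STAT mice (adjusted p = 0.6).

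RefSeq lists Utp14b on chromosome 1 as overlapping Acsl3, a fatty acid activating enzyme gene, with the same start. The stretch and the motif shown above for Utp14b thus lie next to the start listed for both genes. Acsl3 is no ribosome biogenesis gene and was looked at after the values of Utp14b were seen. Its level was 9.63, 9.87 and 10.63 in PAT females and 9.17, 9.15 and 9.03 in control females. In PAT males it was 10.93, 10.93, 10.41, 9.95 and 10.73, and in control males 9.32, 8.91, 9.03, 9.38 and 9.72. PAT and control did not overlap in either sex, and PAT female 3 was again the highest of its group. Acsl3 rose by 1.12 ± 0.18 (adjusted p = 4e-04), and its STAT difference was 0.04 ± 0.19 (adjusted p = 0.96). Utp14b had a single probe set, and whether transcripts of Acsl3 contribute to it was not tested.

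**Figure D4:**
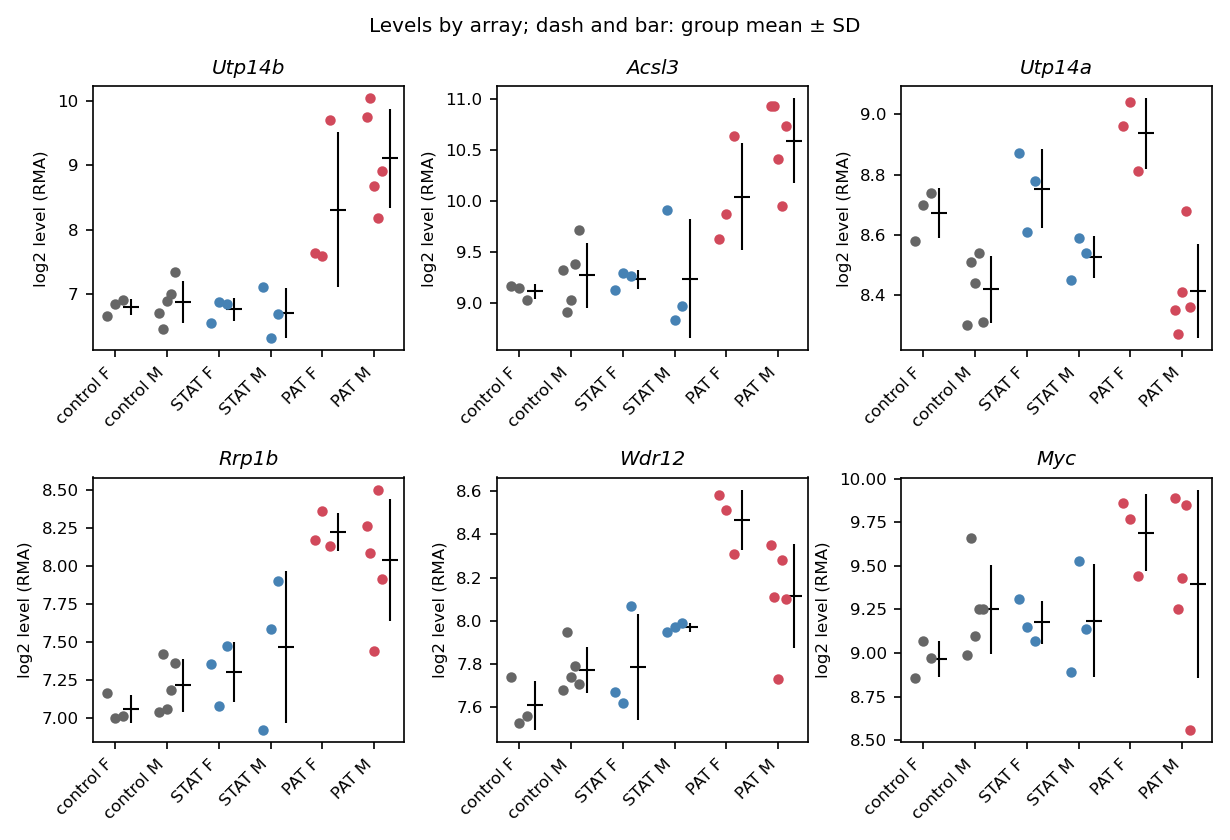
Log2 level on each array (points) with group mean ± SD (dash and bar), by treatment and sex, for Utp14b, its overlapping neighbour Acsl3, its parent Utp14a, Rrp1b, Wdr12 and Myc; each panel has its own vertical scale. PAT arrays of Utp14b start at 7.59 and controls end at 7.34, whereas PAT and control males overlap for Utp14a, Wdr12 and Myc.

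The 2 smallest p-values among members were those of the large subunit factors Rrp1b and Wdr12. Of 9 large subunit members 7 rose and 0 fell, against 4.61% and 6.38% of all genes, and their median was 0.34. Rrp1b, a nucleolar chromatin-associated protein, was at 8.17, 8.36 and 8.13 in PAT females and at 7.16, 7.00 and 7.01 in control females. The PAT males were at 8.26, 8.08, 7.44, 8.50 and 7.91, and the control males at 7.04, 7.42, 7.06, 7.18 and 7.36. Every PAT array lay above every control array, PAT male 3 narrowly. Rrp1b and Utp14b were the 2 members without overlap between the 8 PAT and 8 control arrays, which held for 0.544% of all genes. The rise of Rrp1b was 0.99 ± 0.14 averaged (1.99-fold, adjusted p = 0.00011), 1.17 ± 0.22 in females (adjusted p = 0.0086) and 0.82 ± 0.17 in males (adjusted p = 0.0051). Its other probe sets rose too, by 0.68 ± 0.10 and 0.63 ± 0.08.

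Wdr12, Pes1 and Bop1 encode the partners of 1 complex that processes the large subunit precursor, and their values were unequal. Wdr12 was at 8.58, 8.51 and 8.31 in PAT females and at 7.74, 7.53 and 7.56 in control females. In PAT males it was at 8.35, 8.11, 7.73, 8.28 and 8.10, and in control males at 7.68, 7.95, 7.74, 7.79 and 7.71. The female groups were apart, and in males PAT male 3 lay within the control range. Wdr12 rose by 0.59 ± 0.09 averaged (adjusted p = 0.00016), by 0.85 ± 0.14 in females (adjusted p = 0.0026) and by 0.34 ± 0.10 in males (adjusted p = 0.048). The male call was kept in 2 of 10 fits that left out 1 array. Its 2 dimmer probe sets did not pass, at 0.22 ± 0.09 and 0.08 ± 0.07. Bop1 (0.20 ± 0.06, adjusted p = 0.053) and Pes1 (0.13 ± 0.07, adjusted p = 0.29) did not pass.

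Nop16 and Nop2 rose by smaller amounts than Wdr12, with little spread within the female groups. Nop16, an assembly factor, was at 9.08, 9.07 and 8.99 in PAT females and at 8.38, 8.34 and 8.38 in control females. The PAT males were at 8.72, 8.62, 8.37, 8.89 and 8.79, and the control males at 8.48, 8.50, 8.46, 8.50 and 8.30. Apart from PAT male 3 no PAT array overlapped the controls, and Nop16 rose by 0.45 ± 0.07 averaged (adjusted p = 0.00027) and by 0.68 ± 0.11 in females (adjusted p = 0.0027). In males the difference was 0.23 ± 0.08 (adjusted p = 0.09). Nop2, which methylates cytosine in ribosomal RNA, was at 9.09, 8.96 and 8.89 in PAT females and at 8.53, 8.50 and 8.60 in control females. In PAT males it was at 8.95, 8.85, 8.61, 8.96 and 8.78, and in control males at 8.48, 8.66, 8.40, 8.45 and 8.48. Again PAT male 3 alone overlapped. Nop2 rose by 0.39 ± 0.07 averaged (adjusted p = 0.00072), by 0.43 ± 0.10 in females (adjusted p = 0.027) and by 0.34 ± 0.08 in males (adjusted p = 0.011). The helicase gene Ddx18 rose by 0.34 ± 0.08, Noc2l by 0.34 ± 0.08 and Noc3l by 0.24 ± 0.06. Noc2l was not called with the mean of its probe sets.

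Of the 6 other nucleolar members 4 rose in PAT mice and 0 fell, against 4.61% and 6.38% of all genes. Nolc1, a chaperone of nucleolar particles, rose by 0.58 ± 0.11, the helicase gene Ddx21 by 0.53 ± 0.12, Gnl3, which encodes the stem cell protein nucleostemin, by 0.51 ± 0.10, and Mybbp1a by 0.37 ± 0.10. The abundant nucleolar proteins nucleolin (Ncl, 0.23 ± 0.09, adjusted p = 0.13) and nucleophosmin (Npm1, 0.11 ± 0.07, adjusted p = 0.39) did not pass.

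Processing factors outside the 39 were counted in the same comparison, in which 4.61% of all genes rose and 6.38% fell. Of 37 other small subunit factors measured, 15 rose and 0 fell, with a median of 0.20. Dimt1, a ribosomal RNA dimethylase, rose by 0.59 ± 0.09 and Bysl, Mphosph10 and Rcl1 by 0.53 ± 0.09, 0.46 ± 0.08 and 0.45 ± 0.09. Of 34 other large subunit factors, 19 rose and 0 fell, with a median of 0.25. Rpf2 and Rrs1, which bring the 5S particle to the subunit, rose by 0.76 ± 0.11 and 0.65 ± 0.11, Nip7 by 0.47 ± 0.08, and the export adaptor gene Nmd3 by 0.43 ± 0.07. Of 10 subunits of the exosome, which trims RNA from its 3-prime end, 4 rose and 0 fell. They were Exosc3 (0.40 ± 0.06), Dis3 (0.43 ± 0.10), Exosc1 (0.28 ± 0.08) and Exosc7 (0.19 ± 0.06).

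Calls were also counted within each sex. In females limma called 15 of 39 members higher and 0 lower, against 3.35% of all genes in either direction, 2.27% higher and 1.08% lower, with a median log2 difference of 0.49 and all 39 above 0. In males it called 8 higher and 0 lower, against 9.02% of all genes in either direction, 2.34% higher and 6.68% lower, with a median of 0.23 and 36 above 0. The 8 in males were Utp14b, Rrp1b, Nop2, Rrp9, Polr1b, Nop56, Nolc1 and Wdr12. Of 11 called members with several probe sets in females, 4 were also called by another probe set. In males it was 3 of 4. In females 36 of 39 members had every PAT array above every control array, against 14.7% of all genes, and in males 2 did, against 1.75%. The exceptions in females were Noc4l, Rrp9 and Utp6. The female difference exceeded the male in 37 of 39 members, by a median of 0.28, but the interaction test called 0 members, against 0.0055% of all genes, and 8 had an unadjusted p under 0.05. Nop16 (0.45 ± 0.14, adjusted p = 0.14) and Wdr12 (0.52 ± 0.17, adjusted p = 0.15) had the smallest. Of all genes 1.15% had every one of the 8 PAT arrays below every one of the 8 control arrays, 13.2% in females and 5.29% in males, and 0 members did. Both counts of calls moved with single arrays. Without PAT male 3 limma called 18 members in males, against 10% of all genes, and the median female excess was 0.20. In females the count was 3 without PAT female 1 or control female 3, 4 without control female 2, 5 without PAT female 2 and 6 without control female 1, with 0.676% to 1.34% of all genes called in those fits. In males it was 4 without PAT male 1, 2 or 4 or control male 3 or 4, and 5 without PAT male 5 or control male 1 or 5. Between 4.58% and 11.5% of all genes were called in either direction in those male fits. Without PAT male 1, where it was 11.5%, the 4 of 39 members were no larger a share than that of all genes. The share of all genes called higher alone is not given for those fits, so rises are not compared there.

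Which sex had more calls depended on the scaling. With columns centred on their medians limma called 10 members in females and 16 in males, against 3.25% and 7.69% of all genes, and with quantile normalization repeated it called 11 and 16, against 4.09% and 7.38%. The median female excess was then 0.12 and 0.17, with 32 of 39 members above 0 in each. Centring moved the median of all genes in that contrast from 0.029 to -0.13. With the Gapdh covariate 3 members were called in each sex, against 0.781% of all genes in females and 5.77% in males, and with array weights 28 were called in females, against 8.38%.

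**Figure D5:**
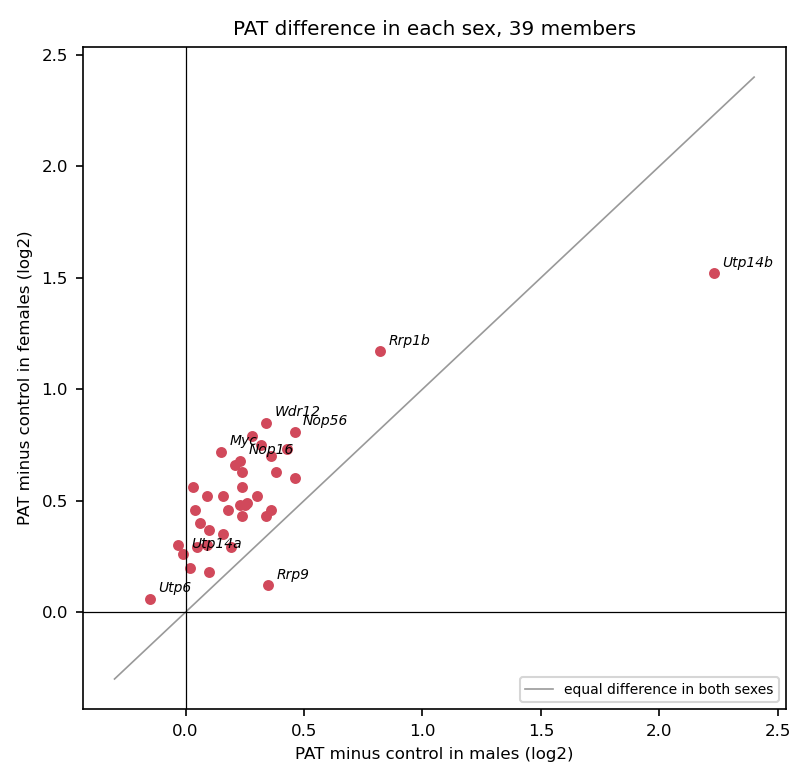
Log2 difference between PAT and control in males (horizontal axis) and in females (vertical axis) for the 39 members, with the line of equal difference. Of the points 37 lie above the line, and Utp14b and Rrp9 lie below it.

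STAT differences were small. Limma called 0 of 39 members averaged over the sexes, in females and in males, and 0% of all genes in each; at an unadjusted p under 0.05 there were 7, 2 and 7 members. The medians were 0.15, 0.09 and 0.19. Npm1 had the smallest p among members, averaged and in males. It was at 12.67, 13.17 and 13.01 in STAT males and 12.78, 12.44, 12.57, 12.77 and 12.49 in control males. STAT males 2 and 3 lay above all control males and STAT male 1 among them. In STAT females Npm1 was at 12.68, 12.66 and 12.86 and in control females at 12.59, 12.67 and 12.52. Its difference was 0.24 ± 0.08 averaged (adjusted p = 0.25) and 0.34 ± 0.10 in males (adjusted p = 0.13).

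Nop2 and Ddx21 had the same layout in STAT males. Nop2 was at 8.52, 8.81 and 8.85 there and at 8.70, 8.62 and 8.69 in STAT females, against the control values above, and its averaged difference was 0.18 ± 0.07 (adjusted p = 0.29). Ddx21 was at 8.12, 8.68 and 8.67 in STAT males and at 8.42, 7.92, 7.71, 8.02 and 7.86 in control males. STAT male 1 lay within the control range for both genes. The Ddx21 difference was 0.50 ± 0.17 in males (adjusted p = 0.17), and another of its probe sets gave -0.02. In females Ddx10 was at 8.79, 8.80 and 9.13 with STAT and 8.75, 8.50 and 8.66 without, and Noc3l at 7.45, 7.23 and 7.43 with STAT and 7.12, 7.23 and 7.20 without. Both differences, 0.27 ± 0.13 and 0.19 ± 0.09, had an adjusted p of 1. Every STAT female lay above every control female for 5 members (Ddx10, Myc, Noc3l, Nop16 and Nop2), against 4.79% of all genes, for Myc and Noc3l by less than the rounding of the values. The same held in males for Mybbp1a and Polr1a, against 2.53%. With both sexes joined, 0 members had all 6 STAT arrays above the 8 control arrays, against 0.0879% of all genes. Complete separation with STAT below was found in 0 members, against 0.143% of all genes with the sexes joined, 5.1% in females and 3.64% in males.

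STAT males 2 and 3 stood apart from STAT male 1 in other measures. The crypt and dividing cell list was at 0.38 and 0.51 in them and at -0.17 in STAT male 1. PAT female 1 was as high on that list, at 0.52. The ileal enterocyte list, with 8 genes measured, was at -1.01 and -0.53 in STAT males 2 and 3 against -0.02 in STAT male 1. The difference between the ends of beta-actin was 0.49 ± 0.17 (SD, n = 3) in STAT males and 0.28 to 0.42 on the arrays of all other groups. With it as a covariate the median STAT difference of the members was 0.02 averaged and -0.01 in males. Without STAT male 1 limma called 3 members averaged, against 5.79% of all genes, and 5 in males, against 10.8%. Without STAT males 2 and 3 it called 0 in both. With array weights it called 9 averaged, against 12.6% of all genes, and 17 in males, against 22.4%.

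Set against STAT directly, PAT arrays were higher in 6 members and lower in 0, averaged over the sexes, against 5.88% of all genes called in either direction, 2.89% higher and 2.98% lower. The median difference was 0.21. The 6 were Utp14b (1.98 ± 0.30, adjusted p = 0.00043), Rrp1b (0.75 ± 0.15, adjusted p = 0.0036), Wdr12 (0.41 ± 0.09, adjusted p = 0.0096), Nop16 (0.29 ± 0.07, adjusted p = 0.019), Rrp12 (0.42 ± 0.12, adjusted p = 0.042) and Gnl3 (0.38 ± 0.11, adjusted p = 0.044). Rrp1b was at 7.35, 7.08 and 7.47 in STAT females and at 6.92, 7.58 and 7.90 in STAT males. Wdr12 was at 7.67, 7.62 and 8.07 and at 7.95, 7.97 and 7.99. Nop16 was at 8.54, 8.47 and 8.77 and at 8.45, 8.51 and 8.66. For these 3 genes the STAT arrays overlapped with PAT male 3 at least, and Utp14b was the 1 member with every PAT array above every STAT array, against 0.726% of all genes. No member had every PAT array below, against 0.803%. Without PAT male 3 the count was 15, against 6.94% of all genes. It was 3 without STAT female 1 or STAT female 2, against 3.57% and 4.84% of all genes. With median centring it was 10, against 5.93%, and with the beta-actin covariate 17, against 6.76%. With only the compared groups fitted it was 3, against 2.84%.

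Between control females and control males limma called 0 members, against 0.055% of all genes, and 2 had an unadjusted p under 0.05. The differences ran from -0.28 to 0.26 with a median of -0.05. The female and the male STAT difference were separated in 0 members, against 0% of all genes. At an unadjusted p under 0.05 there were 0 members.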

How the data were processed

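Total RNA from terminal ileum was measured on 22 Affymetrix arrays of 1 colour. The deposited values are log2 expression per probe set. Per the submitters' processing notes, the authors used affy and RMA, and the sources used here give neither versions nor a genome build. Probe sets with exactly 1 symbol in the platform annotation (34945 of 45101) were used, and a gene with several was represented by the one with the highest mean.

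Limma 3.58.1 in R 4.3.3 was fitted to all arrays with 1 mean per group (16 residual degrees of freedom, plus 4.88 from the empirical Bayes step). Two-sided p-values were adjusted by Benjamini-Hochberg over 18193 genes, with calls made at adjusted p under 0.05. Errors of differences are SE. The fit was tested on simulated data. Replicates are numbered in accession order.

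Values by array are given for Myc, Utp14a, Utp14b and the 4 called members with the smallest p of each comparison (2 where none was called). Up to 4 called genes of each pathway list are named with their difference. Members and lists were chosen with earlier results of these data known, so their counts are descriptions. Alternatives tried were averaging all probe sets of a gene, other probe sets, a minimum mean level of 6, repeated quantile normalization, median centring, only the groups compared, array weights, a trended robust prior, the Gapdh end difference as a covariate and leaving out each array. The beta-actin covariate and the fit without STAT males 2 and 3 were added after seeing the data. The protein comparison of Utp14a and Utp14b was not run.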

Additional observations from a re-analysis of the deposited data

Results flagged for a closer look

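In groups of 4 to 10 arrays, the gap of the highest or lowest array to its neighbour was compared with the group's range by Dixon's criterion. Only the control and PAT males have enough arrays. Of 78 pairs of a member and a group 7 stood out, and chance alone gives about 1 in 20. PAT male 3 was far below the other PAT males in Utp18 (8.98, next 9.31), Nop58 (10.17, next 10.71) and Noc2l (7.41, next 7.81). PAT male 4 was the highest of its group in Npm1 (12.74, next 12.62). Among control males, replicate 5 was the lowest in Nop16 (8.30, next 8.46) and in Noc2l (7.41, next 7.55), and replicate 2 was the highest in Pes1 (9.13, next 9.04). The cause was not tested.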

How the results depend on the processing

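Called members in PAT mice averaged over the sexes numbered 27, and 9 with the Gapdh covariate, against 11% and 4.16% of all genes. In PAT females they numbered 15, and 28 with array weights, 11 with quantile normalization repeated, 10 with median centring and 3 with the Gapdh covariate. The shares of all genes were 3.35%, 8.38%, 4.09%, 3.25% and 0.781%, in that order. In PAT males called members numbered 8, and 16 with quantile normalization repeated, 16 with median centring, 3 with the Gapdh covariate and 3 with only the groups compared. The shares of all genes were 9.02%, 7.38%, 7.69%, 5.77% and 5.23%, in that order. Both rescalings turned the order of the counts, but the median difference stayed larger in females. It was 0.48 against 0.30 in males with quantile normalization repeated, and 0.42 against 0.32 with median centring. In STAT mice, with 0 called, array weights gave 9 averaged and 17 in males, with 12.6% and 22.4% of all genes called. Between PAT and STAT, with 6, median centring gave 10, only the groups compared 3 and the beta-actin covariate 17. The shares of all genes were 5.88%, 5.93%, 2.84% and 6.76%, in that order. Leaving out 1 array gave 23 to 32 for PAT averaged, 3 to 14 in PAT females, 4 to 18 in PAT males, 0 to 3 for STAT averaged, 0 to 5 in STAT males and 3 to 15 for PAT against STAT. In the same order, 7.44% to 13.7%, 0.676% to 4.13%, 4.58% to 11.5%, 0% to 5.79%, 0% to 10.8% and 3.48% to 9.21% of all genes were called. An arm reduced to few arrays used the shared spread. Of the calls, 22 of 27, 3 of 15, 4 of 8 and 3 of 6 were kept in every such fit for PAT averaged, PAT females, PAT males and PAT against STAT. Among the members given by array, the differences that reversed were uncalled ones of STAT: Myc averaged (-0.01 with the beta-actin covariate, -0.01 to 0.15 leaving out 1 array, the lowest without STAT male 2, -0.07 without STAT males 2 and 3), Utp14b averaged (0.22 with the Gapdh covariate, 0.35 with the beta-actin covariate, 0.10 without STAT males 2 and 3), Ddx21 in males (-0.02 with another probe set) and Utp14a averaged (-0.04 with another probe set). Among the other members Utp6 in PAT mice, -0.05, was 0.17 with the mean of its probe sets. Apart from a change in the samples fitted, the cause was not tested. No paired analysis was possible because the labels give no replicate numbers shared between groups.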
